A study of Mus musculus with 12 samples.

Results

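Chit1, Cdh22, Angpt1 and Clip4 are 4 of the 5545 genes analysed here, chosen by their readout: their counts were far higher in NK cells than in ILC1 sorted from the liver. The data came from a study of how obesity affects the NK cells and ILC1 of the mouse liver. C57BL/6 mice, females of C57BL/6J in the study's methods, were weaned onto standard RM1 diet (lean) or onto an obesogenic diet with 45% AFE fat and condensed milk (obese), and both diets were given for 12 weeks. From the intrahepatic leukocytes of 3 lean and 3 obese mice, NK cells were sorted as lineage-negative NK1.1+ cells that carried CD49b and lacked CD49a, and ILC1 as those that carried CD49a and lacked CD49b. Lean NK, lean ILC1, obese NK and obese ILC1 thus had 3 libraries each, 12 in all from 2 ng of total RNA apiece, and the replicate numbers 25, 26 and 27 name the mouse within a diet. No genetic change is given for any group, so diet and sorted population are what the groups differ in. Replicates of a group are separate mice, while an NK and an ILC1 library that share diet and number are from 1 mouse.

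NK cells and ILC1 are the group 1 innate lymphoid cells of the liver. NK cells circulate and are strongly cytotoxic, while ILC1 stay in the liver and are marked by CD49a. Chit1 encodes chitotriosidase, a secreted enzyme that cleaves chitin and is best known from macrophages. Angpt1 encodes angiopoietin-1, the secreted ligand that activates the receptor Tie2 on endothelial cells and stabilises vessels. Cdh22 encodes a classical cadherin of the cell surface, which joins cells through calcium-dependent contacts and binds catenins inside the cell. Clip4 encodes a member of the CAP-Gly linker family, whose best known member, CLIP-170, binds growing microtubule ends.

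All 4 genes are protein-coding, and GENCODE, matched by symbol, gave their positions on GRCm38. Chit1 (ENSMUSG00000026450.14) lies on the forward strand at chr1:134111242-134151540, with 3 annotated transcripts. Cdh22 (ENSMUSG00000053166.14) lies on the reverse strand at chr2:165111507-165234853, with 2 transcripts. Angpt1 (ENSMUSG00000022309.9) lies on the reverse strand at chr15:42424723-42676977, with 2 transcripts. Clip4 (ENSMUSG00000024059.10) lies on the forward strand at chr17:71768473-71864273, with 19 transcripts. The genes are on 4 different chromosomes and are not neighbours. The antisense gene Gm17473 shares 737 exon bases with Angpt1, and Gm14397 lies opposite Cdh22 with 0 shared exon bases. Whether the counting used strand is not stated, so reads from Angpt1 and from Gm17473 cannot be told apart over those bases.

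Sequence upstream of the transcription start is shown for the genes that RefSeq (GRCm38.p6) gave a window for, 3 of the 4, since these genes were chosen by 1 contrast and a reader can see how far their start regions differ. Each sequence reads 5′ to 3′ towards that start and ends before the exon there. The Clip4 bases lie downstream of the first GENCODE start of the gene, in the first intron of 1 transcript. Capitals mark matches on either strand to the core letters of 3 motif families whose factors act in NK cells, namely T-box (GGTGTG), RUNX (TGTGGT) and ETS (AGGAAG). The T-box and RUNX letters can overlap.
Chit1, chr1:134110992-134111241, forward strand: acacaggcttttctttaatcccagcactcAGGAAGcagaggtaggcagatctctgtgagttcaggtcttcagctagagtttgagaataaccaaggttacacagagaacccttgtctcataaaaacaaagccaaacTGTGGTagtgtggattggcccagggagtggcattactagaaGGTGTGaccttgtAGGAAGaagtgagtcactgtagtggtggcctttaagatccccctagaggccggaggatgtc
Cdh22, chr2:165234925-165234987, reverse strand: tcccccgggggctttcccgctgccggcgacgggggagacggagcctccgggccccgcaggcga
Clip4, chr17:71769441-71769673, forward strand, first of 3 RefSeq start sites: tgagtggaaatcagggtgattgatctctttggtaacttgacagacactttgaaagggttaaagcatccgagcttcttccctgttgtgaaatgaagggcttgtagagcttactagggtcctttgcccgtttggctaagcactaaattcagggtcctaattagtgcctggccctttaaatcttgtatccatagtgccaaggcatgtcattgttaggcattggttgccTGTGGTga

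The Chit1 window held 1 T-box match, 74 bases before the start, 1 RUNX match at 115 bases and 2 ETS matches at 221 and 61 bases. Upstream of the first Clip4 start there was 1 RUNX match at 25 bases and no T-box or ETS match. The windows of the other Clip4 starts, not printed, held T-box matches at 126 bases for one and at 194 and 189 bases for the other, RUNX matches at 232 bases and at 192 and 116 bases, and no ETS match. The Cdh22 window of 250 bases (chr2:165234738-165234987, reverse strand) reached into the annotated gene, which GENCODE ends at 165234853. It held no T-box or RUNX match and 2 overlapping ETS matches, at 46 and 42 bases. Both lay outside the bases printed and inside the annotated gene. All values for this window include bases inside the gene. Among the 32851 windows of this length in RefSeq, 16.3% held the T-box letters, 14% the RUNX letters and 29.5% the ETS letters. The Cdh22 window was 77.6% G or C with 30 CpG dinucleotides, against 48% and 1 for Chit1, 47.2% and 2 for Clip4, and medians of 52.4% and 6 over all windows. These matches are descriptions of letters and not measured binding sites.

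The libraries held between 1666637 and 2826766 counts over the genes analysed here, and between 1948 and 3292 of these genes were detected in a library. The summed level of the 3 NK cell markers in the table was 7514 to 8823 CPM (counts scaled to the TMM-normalized size of the library) in the NK libraries and 1872 to 6338 CPM in the ILC1 libraries, and that of the 3 ILC1 markers was 161 to 989 CPM and 4533 to 17313 CPM. Of the NK cell markers, Cx3cr1 (1481 CPM) and Ccr2 (4727 CPM) were as high in obese ILC1 replicate 26 as in NK libraries, at 191% and 117% of the NK mean. Ccr2 made up most of the NK marker sum in every ILC1 library. It was at 1820 to 4727 CPM there, or 45.1% to 117% of its NK mean. The 10 T cell genes in the table summed to 524 to 1144 CPM in NK libraries and 2557 to 9352 CPM in ILC1 libraries. The sum moved with the population, but not each gene did. Cd3g made up most of it in lean ILC1, at 6414 to 6869 CPM. Cd28 was at 348 to 762 CPM in lean NK cells and 451 to 555 CPM in lean ILC1. The part of the T cell genes in the results was not tested. Lean NK replicate 27 and obese ILC1 replicate 26 stood apart. In the first the fewest genes were detected, and the median gene deviated by 1.17 on the log2 scale from the mean of the other 5 NK libraries, against 0.332 to 0.379 for those 5. The second held 87894 counts of the albumin gene Alb, against at most 497 in any other library, and the lowest sum of ILC1 markers among the ILC1 libraries. Their values without these libraries are given beside the results that rest on them.

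Chit1 and Cdh22 were counted in every NK library and in no ILC1 library. Chit1 had 43, 49 and 346 counts in lean NK replicates 25, 26 and 27, which are 20.5, 25.5 and 164 CPM. In obese NK cells it had 77, 29 and 39 counts, or 31.2, 9.94 and 15.1 CPM, and it had 0 counts in all 6 ILC1 libraries. Lean NK replicate 27 was thus the highest of the 12 libraries, and no ILC1 library reached any NK library. Cdh22 was sparser, with 39, 39 and 10 counts in lean NK cells (18.6, 20.3 and 4.74 CPM), 37, 37 and 43 counts in obese NK cells (14.99, 12.7 and 16.6 CPM) and 0 counts in all 6 ILC1 libraries. Here lean NK replicate 27 was the lowest NK library, and again the populations did not overlap. A count of 0 leaves room for up to 3 counts in a library, which was 1.09 to 2.51 CPM in the ILC1 libraries. Against that floor of 3 counts per library, Chit1 was at least 45.1-fold higher in NK cells than in ILC1 of lean mice and at least 10.3-fold higher in obese mice, and Cdh22 at least 9.36-fold and at least 8.12-fold higher. The lean bound for Chit1 rests on lean NK replicate 27, without which it was at least 14.8-fold, and the obese bound was at least 6.87-fold without obese NK replicate 25. The lower bounds for Cdh22 follow its lower counts in NK cells and do not order the genes by the size of their difference. Intervals and floors cover counting error only. In bulk libraries, fewer cells that express a gene and less RNA per cell cannot be told apart.

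Angpt1 and Clip4 were also far higher in NK cells, with a few counts in some ILC1 libraries. Angpt1 had 449, 348 and 122 counts in lean NK cells (214, 181 and 57.9 CPM) and 391, 584 and 488 counts in obese NK cells (158, 200.1 and 189 CPM). In ILC1 it had 0, 4 and 0 counts in lean mice and 0, 18 and 16 counts in obese mice, or at most 2.02 CPM and 15.04 CPM. Every NK library was above every ILC1 library, and the closest pair was lean NK replicate 27 and obese ILC1 replicate 26. Clip4 had 117, 80 and 40 counts in lean NK cells (55.8, 41.7 and 19.0 CPM) and 215, 113 and 182 counts in obese NK cells (87.1, 38.7 and 70.3 CPM). In ILC1 it had 0, 1 and 5 counts in lean mice and 1, 1 and 0 counts in obese mice, or at most 2.59 CPM. These populations did not overlap either. Pooled over the libraries of a diet, Angpt1 was 217-fold higher in NK cells than in ILC1 of lean mice (95% exact counting interval 84.6 to 799) and 30.02-fold higher in obese mice (21.4 to 43.5). Clip4 was 37.4-fold higher in lean mice (16.9 to 103) and 178-fold higher in obese mice (49.0 to 1473; 89.9 without obese ILC1 replicate 27, and 279 without replicate 26), the last against only 2 counts in obese ILC1. Single ILC1 libraries carried much of these ratios. Without lean ILC1 replicate 26, which held all 4 lean counts of Angpt1, its bound against the floor in lean mice was at least 95.9-fold, and without replicate 25 or 27 the ratio was 147 or 145. In obese mice the ratio for Angpt1 was 50.1 without ILC1 replicate 26 (interval 30.7 to 87.8). For Clip4 in lean mice it was 149 without ILC1 replicate 27 (26.5 to 5922), which left 1 count. These differences chose the genes and are given as descriptions.

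**Figure D1:**
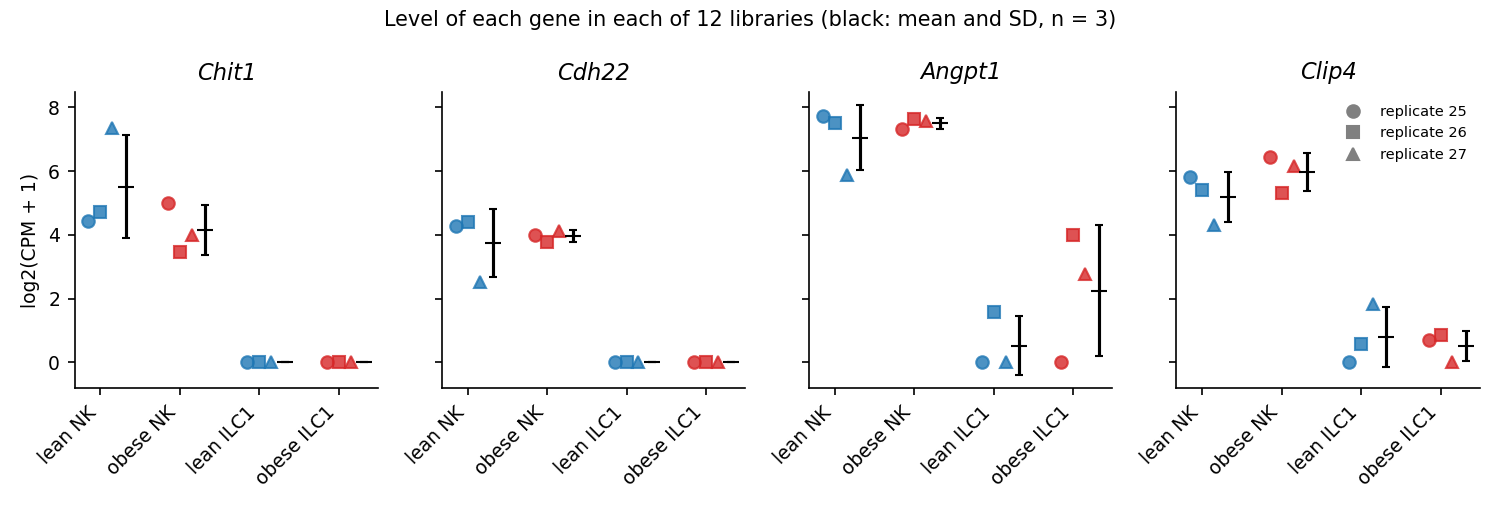
Level of Chit1, Cdh22, Angpt1 and Clip4 in each of the 12 libraries, as log2(CPM + 1) on the vertical axis, by group; the marker shape gives the replicate number and the black bars the mean and SD of 3 libraries. All 6 NK libraries lie above all 6 ILC1 libraries for each gene, and in lean NK replicate 27 (blue triangles) Chit1 is at its highest, 164 CPM, while the other genes are at their lowest among NK cells.

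The genes were taken from the order of genes lower in ILC1, in which edgeR's log2 fold change between the mean of the ILC1 groups and the mean of the NK groups was used. Of 2606 genes with enough counts to be tested, 31 were called lower in ILC1 (1.19%; called at more than 2-fold and p under 0.05 after Benjamini-Hochberg adjustment), 24 of them without overlap between the populations, while 2.88% of all tested genes had every ILC1 library below every NK library. All 4 genes passed the filter on low counts, and since they passed it through the NK libraries they had to differ between the populations. Among the 24 genes, Chit1 was first with a log2 fold change of -9.27 (SE 1.34) and Cdh22 the next with -7.96 (SE 1.16), Angpt1 was number 4 with -6.20 (SE 1.09) and Clip4 number 5 with -6.11 (SE 1.05). Fitted values for Chit1 and Cdh22 depend on how counts of 0 are treated. Anxa8, an annexin gene, stood between Cdh22 and Angpt1 with -7.38 and is not among the 4. The next genes after Clip4 were Cdc20b (-5.68), Cma1, the mast cell chymase gene that is also abundant in NK cells (-5.01), and Car5b (-4.58). For each of the 4 genes the SE was larger than the step to the next gene in this order, so the exact order is not fixed by these libraries. Without lean NK replicate 27 and obese ILC1 replicate 26, the libraries that stood apart, the log2 fold changes were -8.54 for Chit1, -8.24 for Cdh22, -6.97 for Angpt1 and -6.61 for Clip4. Cmya5 had -8.01 but was at 0 in 1 NK library, so its populations overlapped.

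**Figure D2:**
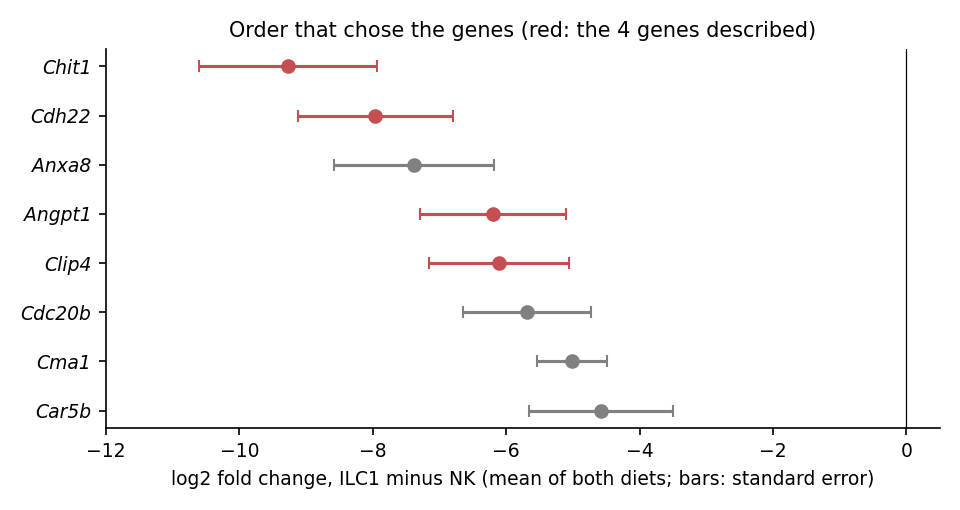
Log2 fold change (ILC1 minus NK, mean of both diets; bars are the standard error) of the 8 genes with the largest decrease among those called lower in ILC1 without overlap. The 4 genes described here (red) run from -9.27 for Chit1 to -6.11 for Clip4, with Anxa8 among them and Cdc20b, at -5.68, just outside.

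In the paired fit, with the mouse as a replicate block, 14 of the 2606 tested genes were called lower in ILC1 by edgeR in place of 31. Angpt1 was among the 14, though only just inside the threshold, while Chit1, Cdh22 and Clip4 were not. The log2 fold changes of the 4 genes under the replicate block were -9.09 for Chit1, -7.93 for Cdh22, -6.94 for Angpt1 and -6.43 for Clip4. Within lean mice alone they were -10.2, -7.95, -7.67 and -5.15 in the same order of genes, and within obese mice alone -8.32, -7.97, -4.73 and -7.07. Chit1 and Angpt1 passed the thresholds within lean mice, and none of the 4 genes did within obese mice. Angpt1 had the smallest difference in obese mice and Clip4 in lean mice. Since this contrast chose the genes, whether they passed is a description and not a test. For the same reason no p-value is given for them in it.

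Among NK cells the mean RNA level differed between the 4 genes, but not every pair differed beyond the spread. Per kilobase of annotated exon, which allows genes of different length to be compared, Angpt1 had the highest mean, 32.03 ± 10.9 CPM per kilobase (SD, n = 6 NK libraries), over 5205 exon bases. Chit1 followed with 24.5 ± 32.6 over 1815 bases, Clip4 with 6.12 ± 2.86 over 8514 bases and Cdh22 with 3.96 ± 1.498 over 3702 bases. Chit1 did not differ beyond its spread from Angpt1, Clip4 or Cdh22, and neither did Clip4 from Cdh22. The size of the mean of Chit1 rests on lean NK replicate 27, at 90.4 CPM per kilobase, but its place in this order does not. Without it the means were 36.2 ± 4.01 for Angpt1, 11.3 ± 4.62 for Chit1, 6.90 ± 2.38 for Clip4 and 4.50 ± 0.81 for Cdh22 (SD, n = 5). Angpt1 and Chit1 then differed by more than their spread, while Chit1 and Clip4 did not.

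Chit1 varied most between NK libraries. The SD of its log2 CPM over the 6 NK libraries was 1.36, against 0.695 for Cdh22, 0.701 for Angpt1, 0.757 for Clip4 and a median of 0.628 over all tested genes. Without lean NK replicate 27 these were 0.616 for Chit1, 0.251 for Cdh22, 0.163 for Angpt1 and 0.487 for Clip4. In lean NK replicate 27 the level of Chit1 was 3.05 higher on the log2 scale than the mean of the other 5 NK libraries, while Cdh22, Angpt1 and Clip4 were lower by values of -1.61, -1.68 and -1.52. In that library Chit1 thus deviated in the opposite direction from the other genes. The 9 markers of Kupffer cells and macrophages in the table summed to 373 CPM in lean NK replicate 27 and to 50.5 to 120 CPM in the other NK libraries, nearly all of it from Cd163, which had 786 counts there and 72 to 157 in the others. Of these 9 markers, 4 were at 0 in all lean NK libraries, and the part of such cells in the Chit1 counts was not tested. For 10% of all tested genes the absolute deviation in that library was above 5.08, so none of the 4 was among its most deviant genes. Outside it, the largest deviation was that of Chit1 in obese NK replicate 26, -1.66, followed by Clip4 in obese NK replicate 25, 1.06. Angpt1 was steady in the other NK libraries, with deviations between 0.05 and 0.56.

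**Figure D3:**
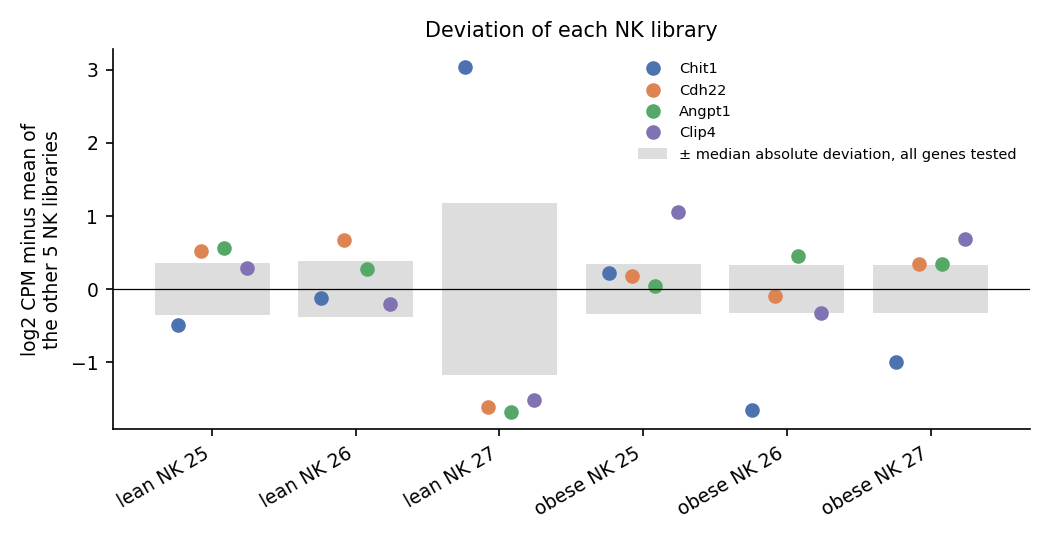
Deviation of each gene in each NK library from its mean over the other 5 NK libraries, in log2 CPM; grey boxes span plus and minus the median absolute deviation of all tested genes in that library. Lean NK replicate 27 has the tallest box, 1.17, with Chit1 at 3.05 and the other genes between -1.68 and -1.52.

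Between obese and lean NK cells none of the 4 genes differed beyond the spread between mice. Mean levels in lean and obese NK cells were 70.1 ± 81.5 and 18.7 ± 11.1 CPM for Chit1 (SD, n = 3 in each group), with an obese to lean ratio of 0.267. For Cdh22 they were 14.6 ± 8.54 and 14.8 ± 1.98 CPM, a ratio of 1.01. Angpt1 had 151 ± 82.4 and 182 ± 21.5 CPM, a ratio of 1.21, and Clip4 had 38.8 ± 18.6 and 65.4 ± 24.6 CPM, a ratio of 1.68. The lean and obese libraries overlapped for all 4 genes, so 0 of the 4 were separated, while 17.1% of all tested genes were. In edgeR's quasi-likelihood test 0% of the tested genes were called between the diets in NK cells. At an unadjusted p under 0.05 that test had 31 genes, while DESeq2 called 8 and had 71 at an unadjusted p under 0.05.

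For Chit1 the log2 fold change, obese minus lean NK, was -1.90 (SE 1.25, 95% interval -4.86 to 1.06), with an edgeR adjusted p of 1 and a two-sided exact permutation p of 0.4. It rested on lean NK replicate 27, without which it was -0.29. For Cdh22 the difference was 0.02 (SE 1.13, interval -2.65 to 2.69, exact permutation p = 1), and for Angpt1 0.27 (SE 1.20, interval -2.37 to 2.91, exact permutation p = 0.8). Without lean NK replicate 27 both turned to lower in obese mice, -0.39 and -0.11. For Clip4 the difference was 0.75 (SE 1.16, interval -1.79 to 3.30, exact permutation p = 0.3), and it stayed higher in obese mice whichever library was left out, from 0.43 without lean NK replicate 27 to 1.10. The edgeR adjusted p was 1 for all 4 genes. With 3 mice against 3 the permutation test cannot go below 0.1, and the intervals leave room for changes of several fold in either direction. The median log2 fold change over all tested genes was 0.09.

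**Figure D4:**
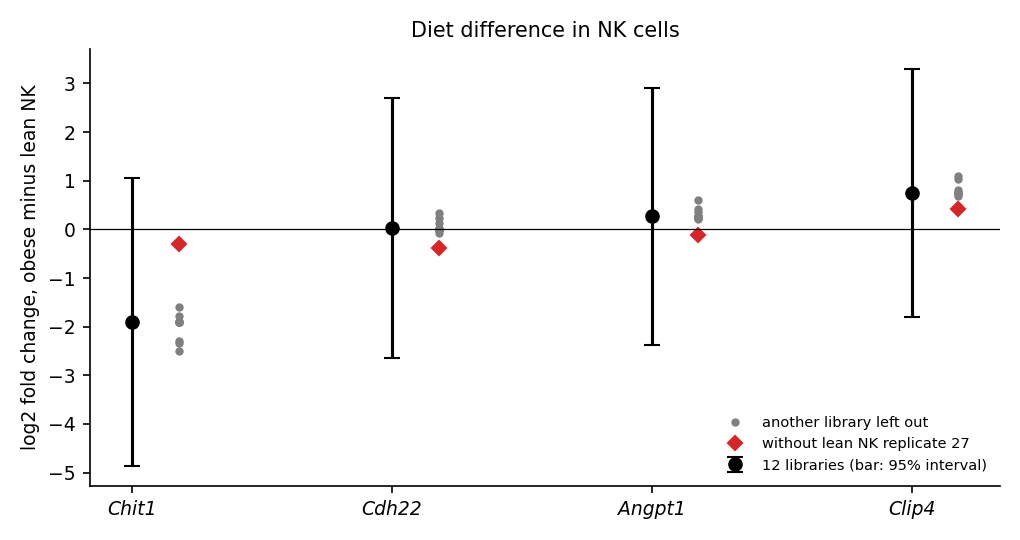
Log2 fold change, obese minus lean NK, of each gene in the fit of 12 libraries (black, bars are 95% intervals) and with each library left out in turn (grey; red without lean NK replicate 27). All intervals cross 0, and leaving out lean NK replicate 27 moves Chit1 from -1.90 to -0.29.

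In ILC1 the diet could be compared for Angpt1 and Clip4 only, since Chit1 and Cdh22 had 0 counts in lean and obese ILC1 alike. At these depths, levels up to 1.09 to 2.51 CPM could have been missed. Angpt1 was at 0.673 ± 1.17 CPM in lean ILC1 and 6.95 ± 7.58 CPM in obese ILC1 (SD, n = 3), a ratio of 10.3 that rests on 4 and 34 counts. Obese ILC1 replicates 26 and 27 were above all lean ILC1 libraries and obese replicate 25 was at 0, so the groups overlapped. The log2 fold change was 3.22 (SE 1.45, 95% interval 0.02 to 6.42), with an edgeR adjusted p of 0.461 (unadjusted 0.0488) and an exact permutation p of 0.4. With DESeq2 it was 3.405 with an adjusted p of 0.185. Clip4 had at most 5 counts in any ILC1 library, with 1.03 ± 1.37 CPM in lean and 0.485 ± 0.434 CPM in obese ILC1 (SD, n = 3, exact permutation p = 0.9, edgeR adjusted p = 0.853). The direction for Clip4 turned without lean ILC1 replicate 27, from -1.16 to 0.63. Neither gene was thus separated by diet, while 15.9% of all tested genes were. EdgeR called 0% of the tested genes between the diets in ILC1, with 277 at an unadjusted p under 0.05, and DESeq2 called 57 higher and 20 lower, with 388 at an unadjusted p under 0.05.

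The Angpt1 counts in obese ILC1 came from libraries of different make-up. Obese ILC1 replicate 26, with 18 counts, was the library with the high Alb count, and its markers of hepatocytes summed to 141502 CPM, of endothelial cells to 11064 CPM, of Kupffer cells and macrophages to 21370 CPM, of B cells to 8032 CPM, of neutrophils to 4056 CPM, of dendritic cells to 2407 CPM and of stellate cells and fibroblasts to 326 CPM. In the other 5 ILC1 libraries the hepatocyte sum was 84.7 to 627 CPM, the endothelial sum 30.3 to 113 CPM, the B cell sum 74.6 to 229 CPM and the stellate sum 3.10 to 23.4 CPM. All 8 hepatocyte and all 5 endothelial markers in the table had counts in obese ILC1, while Cygb, a stellate cell marker, was at 0 in all 12 libraries. The only marker of megakaryocytes and platelets in the table, Clec1b, was at 566 CPM in obese ILC1 replicate 26 and at most 14.5 CPM in the other ILC1 libraries. Obese ILC1 replicate 27, with 16 counts of Angpt1, had a hepatocyte sum of 144 CPM, an endothelial sum of 53.0 CPM and a stellate sum of 8.36 CPM. Its sum of Kupffer cell and macrophage markers was 932 CPM, against 523 CPM in obese replicate 25 and 55.4 to 216 CPM in lean ILC1. Without replicate 26 the log2 fold change of Angpt1 was 2.07, and without the lean ILC1 replicate 26, the only lean ILC1 library with counts of Angpt1, it was 6.87. The part of these other cells in the Angpt1 counts was not tested.

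Relative to the mean of the 6 NK libraries, the residual levels in ILC1 differed between genes within a library. Angpt1 stood at 9.02% of its NK mean in obese ILC1 replicate 26, at 3.49% in replicate 27 and at 0% in replicate 25. Clip4 stood at 1.603%, 0% and 1.19% in these libraries, and at 4.97% in lean ILC1 replicate 27, where Angpt1 was at 0. The NK cell markers had no common share either. Cma1 stood at 3.78%, 2.23% and 11.9% in obese ILC1 replicates 26, 27 and 25, Cx3cr1 at 191%, 21.0% and 0.321%, and Ccr2 at 117%, 56.7% and 80.8%. The part of NK cells in the residual counts was not tested.

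**Figure D5:**
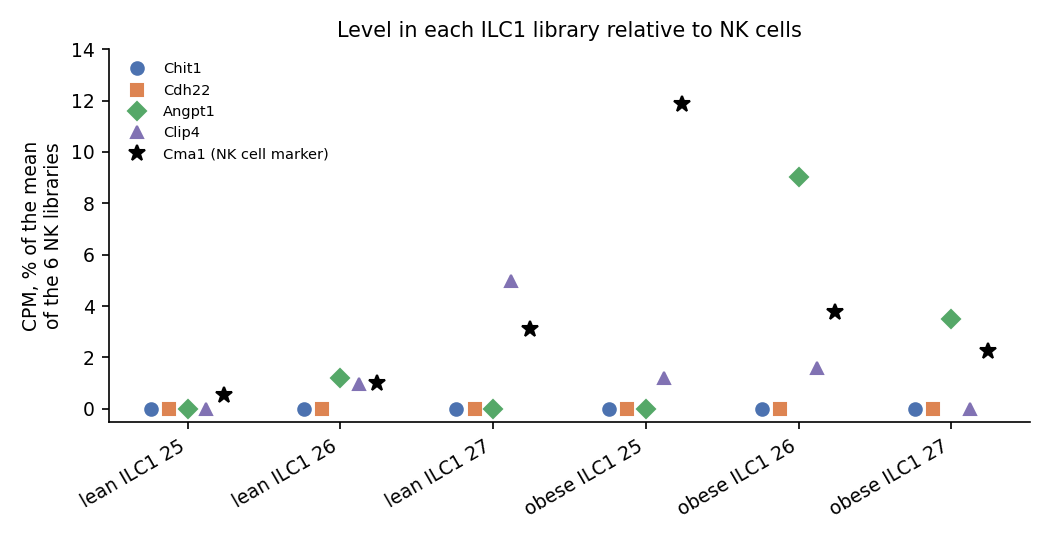
Level of the 4 genes and of Cma1, 1 of the 3 NK cell markers in the table, in each ILC1 library as a percentage of the mean CPM of the 6 NK libraries. Cma1 is highest in obese ILC1 replicate 25, at 11.9%, where Angpt1 is at 0, and Angpt1 is highest in obese ILC1 replicate 26, at 9.02%.

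Whether the difference between ILC1 and NK cells depended on the diet was tested as an interaction in the same fit, in which 0% of the tested genes were called by edgeR (155 at an unadjusted p under 0.05; DESeq2 called 6 higher and 15 lower, with 219 at an unadjusted p under 0.05). For Angpt1 the interaction, the change with obesity in ILC1 minus that in NK cells, was 2.95 on the log2 scale (SE 1.85, edgeR adjusted p = 0.947). It ran from 1.81 without obese ILC1 replicate 26 to 6.60 without lean ILC1 replicate 26. For Clip4 it was -1.91 (SE 1.79, edgeR adjusted p = 0.996) and ran from -2.51 without obese ILC1 replicate 26 to -0.11 without lean ILC1 replicate 27. For Chit1 and Cdh22 no value could be had, since both ILC1 groups were at 0.

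The genes whose pattern over the 12 libraries was most like each of the 4 were found by the root mean square difference of log2 CPM, centred on each gene's mean. The 4 genes were chosen for the same split between NK cells and ILC1, and libraries at 0 counts share 1 value. Small distances among them were thus partly set by that choice, and the distances are given as descriptions. Cdh22 and Clip4 were closest to each other, at 0.760. Angpt1 was closest to Anxa8 at 0.883, which had 123 to 190 counts in the NK libraries and, in ILC1, 9 and 2 counts in obese replicates 26 and 27. Angpt1 had counts in those libraries and in lean ILC1 replicate 26. Cdc20b, at 1.06, and Cmah, at 1.28, came next for Angpt1. The populations overlapped for Cmah, which was at 492 CPM in obese ILC1 replicate 26 and at 126 to 412 CPM in NK libraries. Chit1 had no gene as near, with Anxa8 at 1.13 and Cma1 and 2810468N07Rik at 1.25 each. After Clip4, the genes nearest to Cdh22 were 2010012O05Rik at 0.805 and BB557941 at 0.817, and after Cdh22 the genes nearest to Clip4 were Cma1 at 1.12 and Anxa8 at 1.13. With a prior count of 0.5 in place of 2 the nearest gene stayed the same for Cdh22, Clip4 and Angpt1, and Cdh22 became the nearest to Chit1.

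Family lists were described without the 4 genes, since these were chosen for the difference. Of 25 tested relatives over 5 lists, 2 were called between ILC1 and NK cells by edgeR, both higher in ILC1, beside 4.34% of all tested genes called in either direction. With so few relatives these shares do not set the families apart from other genes. Of the 9 genes listed for the chitinase family, 3 besides Chit1 could be tested and 0 were called, with a median log2 fold change (ILC1 minus NK) of 0.36 against 0.04 over all tested genes. Chid1, a chitinase-domain gene, differed by 0.06 (SE 0.89), and Ctbs, which encodes the lysosomal chitobiase, by 0.36 (SE 0.85), with edgeR adjusted p = 0.993 and 0.910. The chitinase-like gene Chil3 had 2369 counts in obese ILC1 replicate 26 and at most 35 in any other library. In that replicate the neutrophil markers, Chil3 among them, summed to 4056 CPM. Chit1 was at 0 there.

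Of 34 genes listed for the cadherin superfamily, 20 had counts and 5 besides Cdh22 could be tested, with a median log2 fold change of 3.35. Cdh1, the gene of E-cadherin, and Cdh17, that of liver-intestine cadherin, were called higher in ILC1, with log2 fold changes of 8.27 (SE 1.85) and 4.81 (SE 0.87) and edgeR adjusted p = 0.0332 and 0.00792. Cdh1 had 0 to 9 counts in the NK libraries and 0 to 250 in the ILC1 libraries, and Cdh17 had 3 to 31 and 0 to 1207. Cdh17 was high mainly in lean ILC1, at 558 ± 72.1 CPM, against 28.9 ± 32.6 CPM in obese ILC1 (SD, n = 3). That diet difference was not called (log2 fold change, obese minus lean ILC1, -4.28, SE 1.18, edgeR adjusted p = 0.263). Cdh1 was at 115 ± 15.7 CPM in lean and 54.0 ± 74.9 CPM in obese ILC1. Of the catenins, which link cadherins to actin, 5 of 9 could be tested and 0 were called, with a median of 0.17. Ctnnb1, the gene of beta-catenin, had 403 to 667 counts in NK libraries and 248 to 668 in ILC1 libraries.

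Of 11 genes of the angiopoietin family, 4 besides Angpt1 could be tested and 0 were called, with a median of 1.18. Angpt2, whose product binds the same receptor and mostly opposes angiopoietin-1, had at most 20 counts in an NK library and 64 in an ILC1 library. Angptl4, whose product inhibits lipoprotein lipase, was at 23.6 ± 20.5 CPM in lean NK, 38.6 ± 1.07 CPM in obese NK, 47.6 ± 15.6 CPM in lean ILC1 and 116 ± 69.4 CPM in obese ILC1 (SD, n = 3), and ILC1 differed from NK cells by 1.30 on the log2 scale with an edgeR adjusted p of 0.520.

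All 9 genes listed for microtubule plus ends could be tested, and of the 8 besides Clip4 0 were called, with a median of -0.20. Clip1, which encodes CLIP-170, was present in both populations, with 561 to 1137 counts in NK libraries and 403 to 1168 in ILC1 libraries (log2 fold change 0.39, SE 0.17, edgeR adjusted p = 0.250). Clip3 had the value nearest to that of Clip4, -4.78 (SE 1.52, edgeR adjusted p = 0.115), with at most 60 counts in an NK library and 6 in an ILC1 library, and 1 of its NK libraries was at 0. Clasp1, Clasp2 and Ckap5, whose products bind or stabilise microtubules, had log2 fold changes of -0.55, -0.19 and -0.21 and were not called. Between obese and lean mice 0 genes of these 5 lists were called, in NK cells or in ILC1, by edgeR.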

How the data were processed

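RNA of NK cells and ILC1 from 3 lean and 3 obese mice was sequenced on 12 libraries. Per the labels, the submitters' processing notes name mm10, bcl2fastq 2.19, Trimmomatic 0.36.5, STAR 2.5.2b and featureCounts 1.6.0.2, and the study used SARTools. The annotation is not given in the sources used here. The deposited table holds raw counts per gene and a score that the authors made by scaling those counts for library size and rounding. Of the table, 5545 complete rows (symbols up to Cyp26b1) were used and 1 incomplete row was left out. Symbols that follow in the alphabet were not analysed here, so totals understate depth and p-values were adjusted over these genes only.

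Counts were fitted in R 4.3.3 with edgeR 4.0.16 (TMM, filterByExpr, glmQLFit and glmQLFTest, 1 model of 4 groups), with Benjamini-Hochberg adjustment over 2606 genes and calls at an adjusted p under 0.05 and a fold over 2. Log2 CPM used a prior count of 2. Single genes were compared between diets by a two-sided exact permutation test over 3 and 3 libraries. The code was tested on simulated data. Libraries of 1 group differed by more than sampling noise. NK and ILC1 libraries with the same number and diet come from the same mouse by their labels, which pairs them, and the correlations of their deviations from the group means were -0.08 to 0.14 over the 6 mice. A number shared by a lean and an obese mouse does not make them 1 animal.

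The 4 genes, the gene lists and the tests were chosen with earlier results of these data known. Genes named are the 4, their neighbours in the order of genes lower in ILC1, the 3 genes nearest to each, their families and marker lists. Alternatives were DESeq2 1.42.0, its size factors in edgeR, the authors' score, other filters, a prior count of 0.5, no fold threshold, the compared libraries alone, 1 diet alone, the replicate block and each library left out in turn. Leaving out lean NK replicate 27 and obese ILC1 replicate 26 together, leaving libraries out of the ratios, spreads and levels per kilobase, and describing families without the 4 genes were chosen after seeing the data. Exon lengths, positions and promoter windows came from GENCODE and RefSeq annotations of GRCm38.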

Additional observations from a re-analysis of the deposited data

How the results depend on the processing

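Of 228 log2 fold changes of the 4 genes under the alternatives, 210 kept their direction and side of the threshold, 7 turned, and 11, all between ILC1 and NK cells, no longer passed it. The 4 genes kept their direction between ILC1 and NK cells throughout. DESeq2 called 149 genes higher and 73 lower in ILC1 than in NK cells, 8 higher in obese NK cells, 57 higher and 20 lower in obese ILC1, and 6 higher and 15 lower in the interaction. The replicate block called 32 higher and 14 lower in ILC1, and the cause was not tested. Lean mice alone gave 39 higher and 21 lower, and obese mice alone 14 higher and 10 lower, with fewer libraries in the contrast. Leaving out each library in turn gave 40 (without obese NK replicate 25) to 114 (without obese ILC1 replicate 25) genes higher and 22 (without obese NK replicate 27) to 47 (without obese ILC1 replicate 25) lower in ILC1. The same gave 0 to 1 higher and 0 to 0 lower in obese NK cells, 0 to 4 higher and 0 to 2 lower in obese ILC1, and 0 to 0 higher and 0 to 1 lower in the interaction. The log2 difference between obese and lean NK cells ran from -0.39 (without lean NK replicate 27) to 0.34 for Cdh22, which was also below 0 without obese NK replicate 25 (-0.01) or 27 (-0.08), and from -0.11 (without lean NK replicate 27) to 0.60 for Angpt1. That between obese and lean ILC1 ran from -1.75 to 0.63 (without lean ILC1 replicate 27) for Clip4. Without both lean NK replicate 27 and obese ILC1 replicate 26 these were -0.40 for Cdh22 and -0.12 for Angpt1 in NK cells, and 70 genes were lower in ILC1 than in NK cells, with 3 higher and 2 lower in obese ILC1. With the authors' score, Cdh22 was at an obese to lean ratio of 0.988 in NK cells in place of 1.01 (exact permutation p = 1). In the fit of the ILC1 libraries alone the filter on low counts left out Angpt1 and Clip4, so no value was had. Counts of 0 to 5 for Chit1, Cdh22 and Clip4 in ILC1 limit what can be said of diet there, and 3 mice a group limit the permutation tests.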
